A study of Mus musculus with 6 samples.

Results

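Expression of 10 genes that act in the strand exchange and crossover steps of meiotic recombination was followed in testes of mice at day 10. They were Dmc1, Meiob, Spata22, Msh4, Msh5, Hfm1, Hsf2bp, Mcmdc2, Tex11 and Tex15. They were chosen by name, and all 10 were found by symbol among the 22219 genes of the expression table. RNA was sequenced from whole testes in 6 libraries. The 3 cKO libraries came from mice in which Eif5 was deleted in male germ cells, with floxed alleles (Eif5fl/fl) cut by a Stra8-Cre transgene. The 3 Control libraries came from control mice whose genotype is not stated, so any effect of the transgene or the floxed locus cannot be told apart from that of losing eIF5. The Stra8 promoter drives the Cre in germ cells, so Sertoli, Leydig and other somatic cells of the organ keep Eif5. Its product, eIF5, prompts GTP hydrolysis when the scanning ribosome meets a start codon. Whether each library held 1 animal or several is not stated, and the p-values therefore measure only the spread between these samples.

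Meiotic recombination begins with programmed DNA breaks, whose ends are cut back to single strands. Recombinases coat these strands and drive them into the homologous chromosome, and a set of crossover factors then keeps some of the joined molecules stable until they mature into crossovers. In the mouse testis many genes of these steps are switched on as spermatogonia enter meiosis, though Tex15 already acts in fetal germ cells. The first wave of meiosis is in early prophase at about this age. Markers of later stages were low. The strongest of them in Control libraries, Gapdhs, averaged 23.6 normalised read counts in cKO and 52.6 in Control. This was near the level of the member Mcmdc2, at 24.6 in cKO and 46.3 in Control. The summed level of 6 late spermatocyte and spermatid markers was 52.9 to 93.3 normalised read counts in cKO libraries and 101 to 130 in Control libraries, and 3 of the 6 were too low to test. A normalised read count here is a read count divided by 1 scaling factor per library.

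RefSeq promoter windows were held for Dmc1, Spata22, Msh4, Msh5, Hfm1 and Hsf2bp. The 250 bases before the start of the gene are shown for 4 of them, which stand for the recombinase, a factor that binds single-stranded DNA and 2 crossover factors. Whether these stretches bear on expression in these libraries was not tested. In build GRCm38.p6 the Dmc1 stretch is chr15:79605110-79605359 on the minus strand and the Spata22 stretch is chr11:73329491-73329740 on the plus strand. The Msh5 stretch is chr17:35046623-35046872 and the Hfm1 stretch is chr5:106925891-106926140, both on the minus strand. Each is written 5′ to 3′ along the gene, and capitals mark the letters TCCCGC or CNCCTCAG on either strand.
Dmc1: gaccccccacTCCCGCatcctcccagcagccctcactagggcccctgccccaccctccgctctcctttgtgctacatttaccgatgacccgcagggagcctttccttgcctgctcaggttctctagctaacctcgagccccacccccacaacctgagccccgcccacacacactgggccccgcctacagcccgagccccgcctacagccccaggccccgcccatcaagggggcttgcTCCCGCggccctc
Spata22: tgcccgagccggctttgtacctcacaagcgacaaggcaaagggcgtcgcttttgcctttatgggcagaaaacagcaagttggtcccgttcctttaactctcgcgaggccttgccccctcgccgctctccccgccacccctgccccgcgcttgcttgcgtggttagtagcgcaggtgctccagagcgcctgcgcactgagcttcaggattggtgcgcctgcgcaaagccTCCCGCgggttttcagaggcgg
Msh5: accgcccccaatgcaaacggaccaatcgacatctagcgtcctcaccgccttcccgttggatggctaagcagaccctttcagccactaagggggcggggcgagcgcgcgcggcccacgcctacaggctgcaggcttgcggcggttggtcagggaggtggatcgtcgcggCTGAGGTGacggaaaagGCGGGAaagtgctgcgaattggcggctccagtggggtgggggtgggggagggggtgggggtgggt
Hfm1: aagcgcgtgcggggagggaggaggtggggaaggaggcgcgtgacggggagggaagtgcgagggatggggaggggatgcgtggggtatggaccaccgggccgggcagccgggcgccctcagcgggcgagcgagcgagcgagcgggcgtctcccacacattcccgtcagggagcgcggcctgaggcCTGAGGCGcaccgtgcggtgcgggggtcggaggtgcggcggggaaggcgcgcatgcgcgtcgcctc

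The letters TCCCGC, the core bound by E2F6 type factors, were found in 4 of the 6 windows, those of Dmc1, Spata22, Msh5 and Hsf2bp. They were present in 16.9% of the 32851 windows of the same length over all genes. In Dmc1 they occurred at 240 and at 13 bases before the start, in Spata22 at 22, in Hsf2bp at 49, and in Msh5 on the opposite strand at 65. The letters CNCCTCAG, reported for STRA8 binding, were found on the opposite strand in Hfm1 at 66 and in Msh5 at 82 bases before the start, and in 6.42% of all windows. Neither the E-box CACGTG, held by 6.02% of all windows, nor the letters TGACGTCA, held by 1.55%, occurred in the 6 windows. The Msh4 window, which is not shown, had 43.6% G and C against 68.8% for Dmc1 and held none of these letters. A match is a run of letters only and was not set against binding data.

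The library labels were first checked on Eif5 itself. It had 8548, 8982 and 9574 normalised read counts in cKO replicates 1 to 3, against 11965, 10551 and 11187 in Control replicates 1 to 3. All cKO libraries lay below all Control libraries, and limma gave a log2 fold change of -0.31 (SE 0.0947, adjusted p = 0.024). Leaving out cKO replicate 1 (adjusted p = 0.13) or cKO replicate 2 (0.0875) ended the call, and scaled to general germ cell genes the fold change turned to 0.27 (adjusted p = 0.0733). The table gives 1 value per gene, so the floxed exons could not be read apart from the others. Recovered reads per library ran from 32555443 to 48015318 in cKO and from 33631996 to 48409550 in Control. Pairs of libraries correlated at 0.986 to 0.988 within a group and at 0.978 to 0.982 across groups on the log2 scale.

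Of the 10 strand exchange and crossover genes, 9 were lower in cKO testes and 0 higher, at a limma adjusted p under 0.05 over all 17570 genes tested. Over all tested genes 10.4% were called lower, and 9.63% higher. At an unadjusted p under 0.05, 0 members were higher by limma, and edgeR and DESeq2 also called 0 higher. The median log2 fold change of the 10 was -1.34, against 0.01 over all tested genes. For the same 9 genes every cKO library lay below every Control library, an arrangement shown by 18.4% of all tested genes. Among the members, 7 were called and at least 2-fold lower, which held for 1.95% of all tested genes. All 10 passed the filter on low counts, which takes libraries of either group. In cKO replicate 2 Meiob had 8 reads, below the minimum count of 10. Mcmdc2 was the member not called. Fold changes are on the scale of log2(value + 2), on which the changes of weakly expressed genes come out too small. In whole testes, fewer cells of a type and less RNA per cell cannot be told apart.

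**Figure D1:**
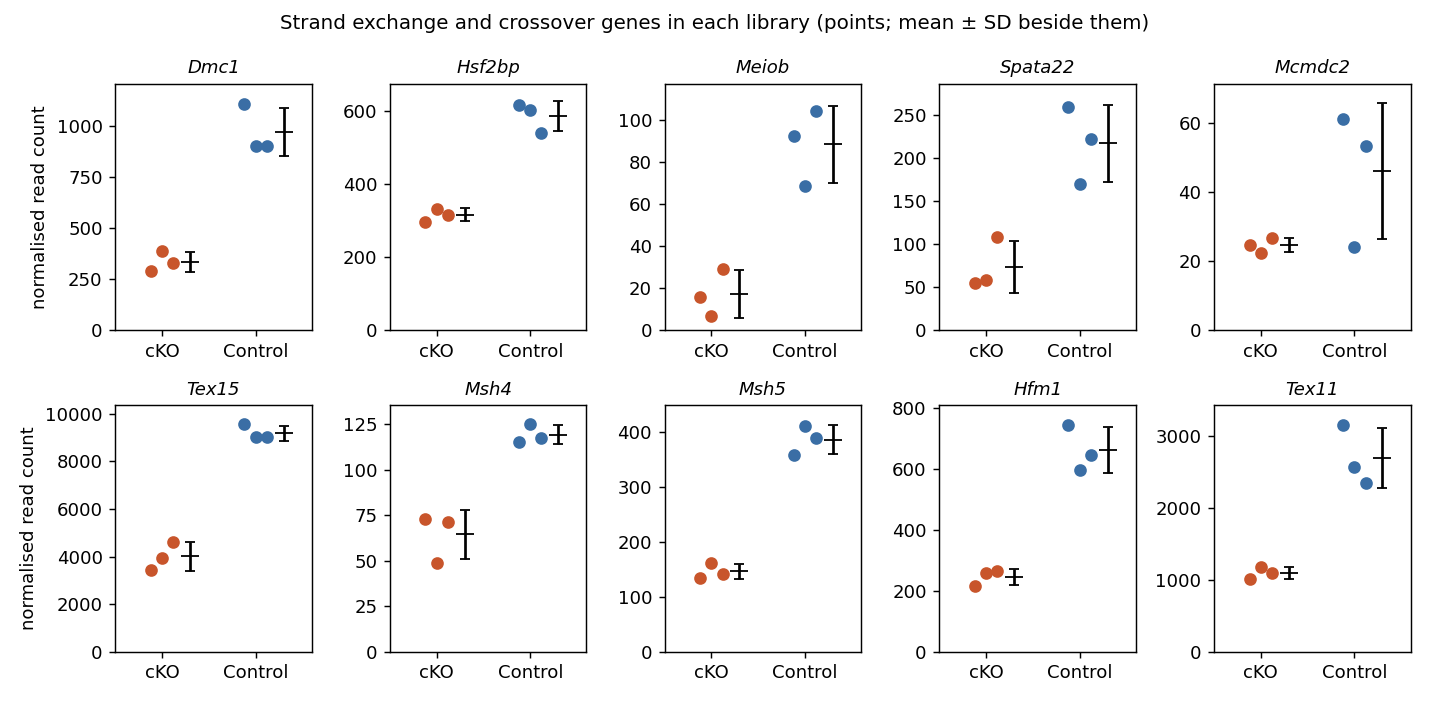
Normalised read counts of the 10 genes in each library, with cKO left and Control right in each panel, points for libraries and the mean ± SD beside them (n = 3 each). Every cKO point lies below every Control point in 9 panels, and the groups overlap for Mcmdc2.

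Dmc1 encodes the meiosis-specific recombinase of the RecA family, which forms the filaments that invade the homologous chromosome. It had 289, 385 and 326 normalised read counts in cKO testes, against 1109, 900 and 903 in Control testes. The highest cKO library thus stood well below the lowest Control library. Its means were 334 ± 48.6 in cKO and 971 ± 120 in Control (SD, n = 3 each), with a log2 fold change of -1.54 (SE 0.136, limma adjusted p = 1.61e-07).

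Hsf2bp encodes a testis protein that binds BRCA2 and brings it to meiotic breaks, where it helps to load the recombinases. Its counts were 297, 332 and 316 in cKO testes, against 616, 602 and 541 in Control testes. The groups did not overlap and both were tight, with means of 315 ± 17.7 in cKO and 586 ± 40.0 in Control (SD, n = 3 each). The log2 fold change was -0.89 (95% interval -1.16 to -0.62, limma adjusted p = 7.97e-05). The interval of Dmc1 was -1.82 to -1.26, which is no test of a difference between these genes. Dmc1 per Hsf2bp was 0.973, 1.16 and 1.03 in cKO libraries, against 1.80, 1.495 and 1.67 in Control libraries. For this ratio an exact permutation test gave p = 0.1, and 0.2 after adjustment over 4 ratios.

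Tex15 encodes a large protein needed for recombinase loading at meiotic breaks, and it is also known for its part in piRNA-directed silencing of transposons in fetal germ cells. It was the most abundant of the 10 by reads, with 3439, 3960 and 4622 normalised read counts in cKO testes and 9560, 9010 and 9020 in Control testes. The Control libraries were close together while the cKO libraries spread more. Tex15 fell with a log2 fold change of -1.21 (SE 0.103, limma adjusted p = 1.14e-07).

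Meiob and Spata22 encode partners that bind single-stranded DNA together, Meiob being related to the large subunit of replication protein A. Meiob had 15.8, 6.42 and 29.1 normalised read counts in cKO testes, against 92.4, 68.6 and 105 in Control testes. This was the largest fall of the 10, with a log2 fold change of -2.42 and a wide 95% interval of -3.27 to -1.57 (limma adjusted p = 0.000334). Only 14, 8 and 24 reads lay behind the cKO values, against 125, 63 and 96 behind the Control values.

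Spata22 had 54.0, 57.8 and 108 normalised read counts in cKO testes, against 259, 170 and 221 in Control testes. The cKO replicate 3 stood apart from the other cKO libraries, yet below all Control libraries. By limma it fell by 1.59 on the log2 scale (SE 0.252, adjusted p = 0.000176). In GENCODE M21 another gene model on the same strand, Gm49340, shares 80.5% of the exon bases of Spata22 and is not a row of the expression table, so the value is uncertain where the counting split such reads. Meiob per Spata22 was 0.292, 0.111 and 0.270 in cKO libraries, against 0.357, 0.404 and 0.473 in Control libraries.

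Mcmdc2 encodes a protein of the MCM helicase family that is needed for strand invasion to proceed in mouse meiosis. It had 24.8, 22.5 and 26.7 normalised read counts in cKO testes, against 61.4, 23.95 and 53.4 in Control testes. The Control replicate 2 lay among the cKO libraries, and 22 to 28 reads stood behind the cKO values. The opposite-strand gene Snhg6 shares 2.15% of its exon bases and Rrp1b shares 1.51% of those of Hsf2bp, and without strand such reads cannot be told apart. The log2 fold change was -0.76 (95% interval -1.55 to 0.03, limma adjusted p = 0.169). Without Control replicate 2 it was -1.16 and was called (adjusted p = 0.042).

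Msh4 and Msh5 encode the MutS homologues that form a clamp on crossover intermediates and take no part in mismatch repair. Msh5 had 135, 162 and 142 normalised read counts in cKO testes, against 359, 413 and 389 in Control testes, with no overlap. This gave a log2 fold change of -1.39 (SE 0.161, adjusted p = 4.66e-06 by limma). Msh4 had 73.1, 49.0 and 71.5 normalised read counts in cKO testes, against 115, 125 and 118 in Control testes.

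The Control values of Msh4 were close together and its cKO values were below them in every library. The log2 fold change of Msh4 was -0.89 (95% interval -1.39 to -0.39, limma adjusted p = 0.0125), and the call was lost without cKO replicate 2 (-0.71, adjusted p = 0.0713). Msh4 per Msh5 was 0.542, 0.302 and 0.504 in cKO libraries, against 0.322, 0.303 and 0.303 in Control libraries. In cKO replicate 2 the ratio was close to that of the Control libraries, and the other cKO libraries were higher.

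Hfm1 encodes the helicase that extends the joined strands, the counterpart of yeast Mer3. It had 217, 257 and 265 normalised read counts in cKO testes, against 745, 597 and 648 in Control testes. The groups were far apart, and Hfm1 fell by 1.42 on the log2 scale (SE 0.141, adjusted p = 7.77e-07 by limma).

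Tex11, an X-linked gene, encodes the counterpart of yeast Zip4, a scaffold of the crossover factors. Its counts were 1018, 1176 and 1095 in cKO testes, against 3160, 2575 and 2351 in Control testes. The cKO values were close to each other while the Control values were more spread. Tex11 fell with a log2 fold change of -1.29 (SE 0.111, limma adjusted p = 1.18e-07), and Tex11 per Tex15 averaged 0.277 ± 0.0344 in cKO and 0.292 ± 0.0354 in Control (SD, n = 3 each).

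In all, 4 ratios between members were compared: Meiob per Spata22, Msh4 per Msh5, Dmc1 per Hsf2bp and Tex11 per Tex15. Dmc1 per Hsf2bp and Meiob per Spata22 were lower in all cKO libraries than in all Control libraries. An exact 2-sided permutation test gave p = 0.1 for each of these, the smallest value that 3 against 3 libraries allow, and 0.2 after adjustment over the 4 ratios. The same exact test gave p = 0.4 for Msh4 per Msh5 and p = 0.7 for Tex11 per Tex15.

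The members differed widely in level. Per kb of merged exons in GENCODE M21, Tex15 stood highest with 416 ± 61.7 normalised read counts in cKO and 956 ± 32.7 in Control (SD, n = 3 each), followed by Tex11 with 303 ± 21.7 in cKO and 744 ± 115 in Control. Dmc1 came next with 137 ± 19.96 in cKO and 399 ± 49.1 in Control. At the low end Msh4 had 9.36 ± 1.96 in cKO and 17.3 ± 0.743 in Control, and Mcmdc2 had 4.16 ± 0.353 in cKO and 7.82 ± 3.33 in Control. The low genes included both the member with the lowest fold change, Meiob, at 9.49 ± 6.32 per kb in cKO and 49.2 ± 10.2 in Control, and the one that was not called, Mcmdc2. Among the cKO libraries replicate 1 was lowest for 7 of the 10 genes and replicate 3 was highest for 5. Among the Control libraries replicate 1 was highest for 7 and replicate 2 was lowest for 6.

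Germ cell and somatic markers moved as well, and their part in the fall of the members was not tested. Of 10 general germ cell genes, such as Ddx4 and Dazl, 6 were lower and the other 4 had negative fold changes that were not called; the median on the log2 scale was -0.41. Their summed level was 23750 to 25062 normalised read counts in cKO and 33920 to 41912 in Control. Among 10 Sertoli markers 6 were higher and 1 lower, with sums of 416916 to 484685 in cKO and 258880 to 386774 in Control. Of 8 markers of undifferentiated spermatogonia, 3 were higher (Gfra1, Ret and Etv5) and 0 lower by limma, where 2 were lower at an unadjusted p under 0.05 and edgeR and DESeq2 each called 1 lower. Their sums were 11479 to 12415 in cKO and 10275 to 11645 in Control. Of 6 genes of differentiating spermatogonia 5 were lower, among them Stra8, the retinoic acid target of meiotic entry, at 1737, 1695 and 1290 in cKO testes against 5906, 5487 and 4319 in Control testes. Of 6 Leydig markers 5 were higher, with sums of 19326 to 23210 in cKO and 12342 to 17412 in Control. Of 5 peritubular myoid markers 2 were lower and 0 higher, with a median of -0.24 and sums of 21362 to 22748 in cKO and 22824 to 24347 in Control.

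The fall of the members was then measured relative to the summed reads of the germ cell and Sertoli lists, which do not count cells. When the libraries were scaled to the summed reads of the general germ cell genes, 7 of the 10 were still called lower, where 1.46% of all tested genes were. This scaling moved the median of all genes to 0.58 on the log2 scale. These 7 were the same genes that were at least 2-fold lower with the deposited factors. The scaling shifts all fold changes by a similar amount, so this overlap is no separate support. Dmc1 then had a log2 fold change of -0.95 (adjusted p = 9.95e-05), Meiob of -1.88 (adjusted p = 0.00192) and Tex15 of -0.62 (adjusted p = 0.00115), all by limma. Hsf2bp (-0.31, adjusted p = 0.0849), Msh4 (-0.32, adjusted p = 0.306) and Mcmdc2 (-0.21, adjusted p = 0.647) were not called.

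Scaled to the Sertoli genes, all 10 were called lower, where 26.0% of all tested genes were. The median of the members was then -1.79 and that of all genes -0.44. Clu supplied 64.2% of the counts of the Sertoli list, so this scaling mostly follows 1 gene. Clu had 306001, 256200 and 295098 normalised read counts in cKO testes, against 157598, 252501 and 257035 in Control testes, and its log2 fold change of 0.39 did not pass (adjusted p = 0.217 by limma). With Clu left out of the list, a scaling chosen after the data were seen, all 10 members were again called lower, but so were 61.9% of all tested genes. The median of the members was -1.91 and that of all genes -0.56. Dazl supplied 32.5% of the reads of the general germ cell list and was itself lower (log2 fold change -0.80). With Dazl left out of that list, also chosen after the data were seen, 8 members were called lower, against 2.08% of all tested genes, and Hsf2bp was among them (-0.41, adjusted p = 0.0212).

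**Figure D2:**
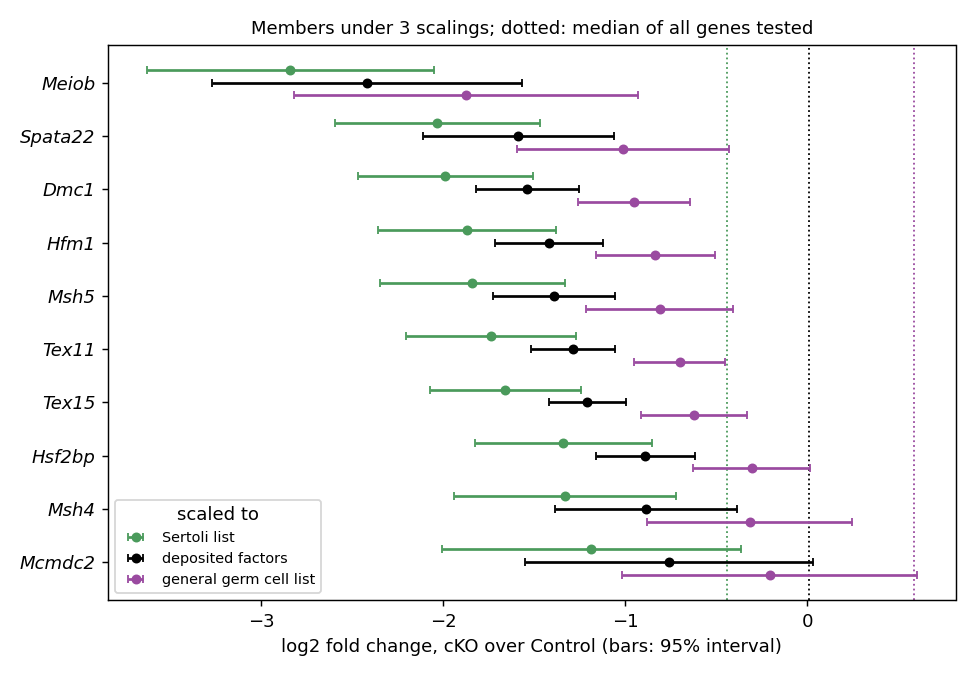
Log2 fold change of each member, cKO over Control, with its 95% interval from limma, under scaling to the Sertoli genes, with the deposited factors and under scaling to the general germ cell genes; dotted lines mark the median of all tested genes, at -0.44, 0.01 and 0.58. Every member lies to the left of the matching dotted line, and the upper bounds of Hsf2bp, Msh4 and Mcmdc2 pass 0 under the germ cell scaling.

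Other genes of the recombination pathway were lower to differing extents. Of 14 further meiotic recombination genes 11 were matched and tested, with 7 lower and 0 higher. Their median log2 fold change was -0.76. By limma 0 of them were higher at an unadjusted p under 0.05, and edgeR and DESeq2 also called 0 higher. The 4 with the lowest fold changes among those called were Rad51ap2 (-1.94), AI481877, the listed name of Shoc1, the counterpart of yeast Zip2 (-1.48), Ccnb1ip1, the ubiquitin ligase gene known as Hei10 (-0.92), and Zcwpw1, a reader of the histone marks set by PRDM9 (-0.89). Rad51ap2 had 29.3, 51.4 and 82.4 normalised read counts in cKO testes, against 214, 152 and 236 in Control testes. Another 4 genes were not called, including Rnf212, a crossover ligase gene (-0.02, adjusted p = 0.96), and Mlh3, a gene of crossover resolution (0.00, adjusted p = 0.986), both singled out after their values were seen.

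Recombination genes that mitotic cells share had smaller median fold changes. Of 24 recombinase mediators 11 were lower and 13 not called, and the median on the log2 scale was -0.37. Among the lowest were the homologous recombination genes Brca2 (-0.80) and Brca1 (-0.74) and the translocase gene Rad54b (-0.67). Brca2 had 1646, 1980 and 2038 normalised read counts in cKO testes, against 3569, 3047 and 3231 in Control testes, and the groups did not overlap. Of 15 genes that process joined molecules 12 were lower, with a median of -0.51, led by Rmi2 (-0.76) and Brip1 (-0.72), which encode a partner of the BLM helicase and a helicase of crosslink repair, Eme1, a nuclease subunit gene (-0.66), and the exonuclease gene Exo1 (-0.63). Scaled to the general germ cell genes, limma called 0 of the 24 mediators and 0 of the 15 processing genes lower, with 0 of each at an unadjusted p under 0.05, and 8 and 2 of them higher. Of all tested genes 63.1% were called higher under this scaling, a larger share than in either list. Without Dazl in that scaling 1 mediator, Brca2, was lower and 5 were higher, where 56.7% of all tested genes were called higher.

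Among the pathway lists, the nearest medians were those of neighbouring meiotic steps. Outside the pathway, 6 genes of differentiating spermatogonia had a median log2 fold change of -0.96. The 3 late spermatocyte and spermatid markers that were tested, all at low counts, had a median of -1.15, with 1 called lower. Of 10 synaptonemal complex and axis genes all 10 were lower (median -1.25 on the log2 scale). The lowest were Hormad2 (-1.61), Sycp2 (-1.55), Hormad1 (-1.39) and Sycp3 (-1.33). Of 8 genes of break formation 7 were matched and 6 were lower, with a median of -1.17. Spo11, which encodes the enzyme that cuts the DNA (-2.38), and Prdm9, which marks the sites of cutting (-2.31), came nearest to the fold change of Meiob. Mei1 (-1.36) and Ccdc36, the listed name of Iho1 (-1.17), followed. Scaled to the general germ cell genes, 7 axis genes and 5 break genes were still lower, beside 7 of the 10 strand exchange and crossover genes. Of the 11 other meiotic recombination genes 3 were lower and 1 higher. Over all tested genes 1.46% were called lower and 63.1% higher under this scaling.

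**Figure D3:**
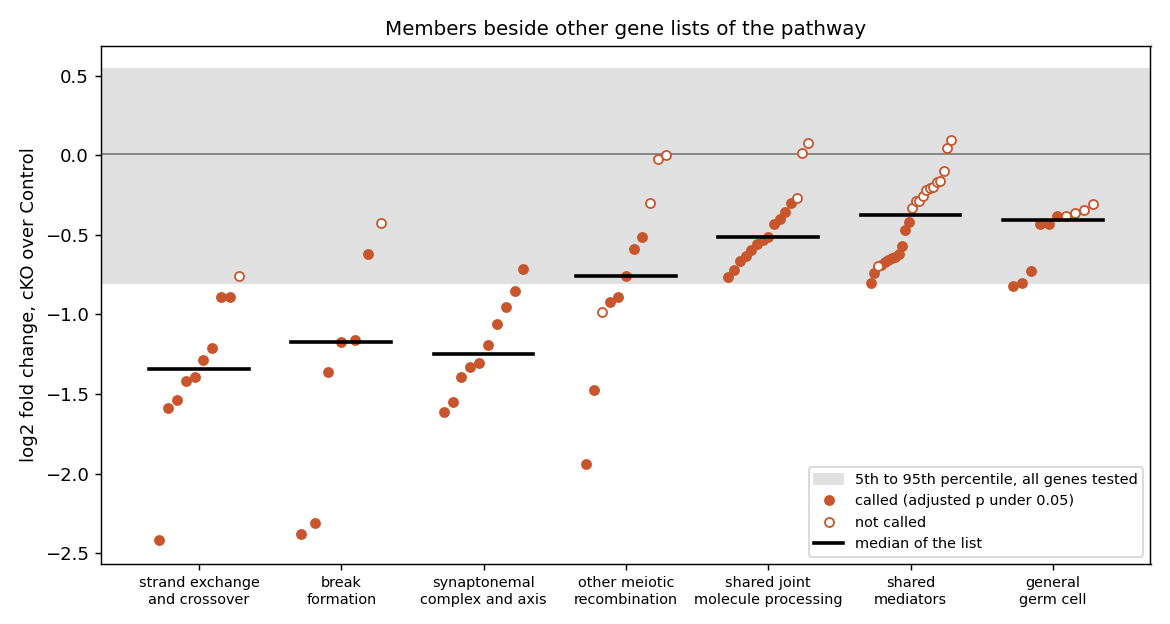
Log2 fold change, cKO over Control, of each tested gene in 7 lists, filled where the limma adjusted p was under 0.05, with the median of each list as a bar and the 5th to 95th percentile of all tested genes (-0.80 to 0.54) in grey. The medians of the first 3 lists, -1.34, -1.17 and -1.25, lie below the grey band, and those of the shared lists and the general germ cell list lie within it.

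Summed over the 10 members, expression came to 22.7, 25.6 and 29.5 normalised read counts per 100 of the general germ cell list in cKO libraries, against 38.4, 42.7 and 41.2 in Control libraries. The groups did not overlap. Tex15 made up 62.0% of this sum, so it mostly follows that gene. The synaptonemal complex and axis genes gave 31.9 to 39.4 in cKO libraries and 46.4 to 52.0 in Control libraries. The other meiotic recombination genes gave 15.8 to 17.1 in cKO libraries and 16.4 to 17.8 in Control libraries, which overlapped. For the shared mediators the order was the other way, with 136 to 146 in cKO libraries and 106 to 119 in Control libraries. The summed level of the mediators was itself lower, at 33425 to 34761 in cKO and 40351 to 44309 in Control, and the sum of the germ cell list was lower by a larger factor. Sfr1 and Swi5, neither of them called, made up 42.3% of the mediator sum.

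**Figure D4:**
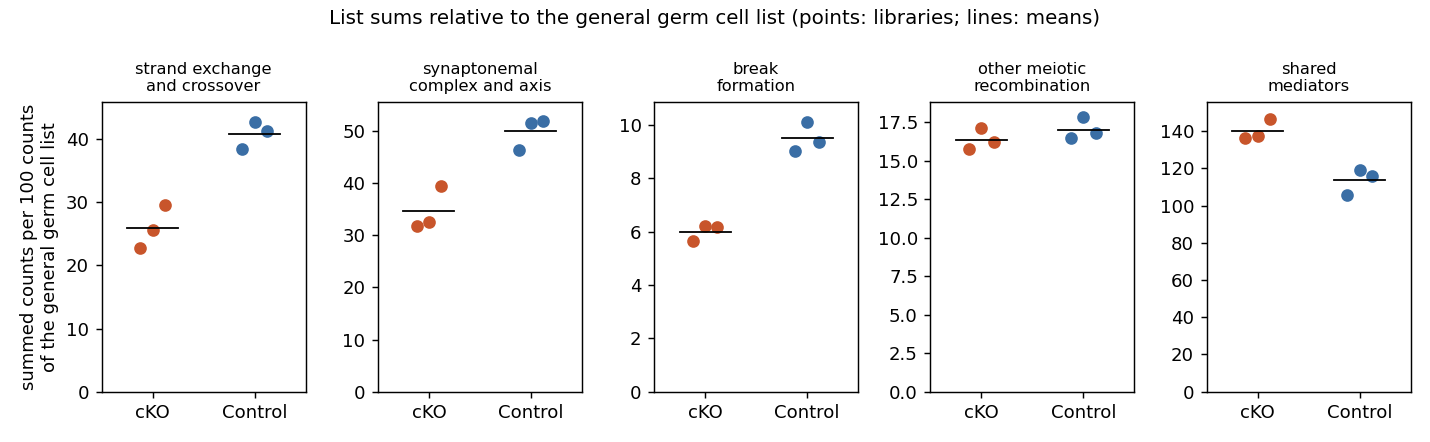
Summed normalised read counts of 5 gene lists per 100 counts of the general germ cell list, with cKO left and Control right in each panel, points for libraries and lines for means (n = 3 each). The cKO points lie below the Control points for the strand exchange and crossover genes (25.9 and 40.8 on average), the axis genes and the break genes, overlap them for other meiotic recombination genes and lie above them for the shared mediators.

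The tested genes outside the 10 whose log2 values followed most closely the mean standardised value of the members were Lin28b, an RNA-binding inhibitor of let-7 microRNAs, Sycp2, Ankrd12, Herc1 and Gm26819, with Pearson correlations of 0.997 to 0.998 over the 6 libraries. These points share the genotype difference, and 486 genes, members included, had a correlation over 0.95. Lin28b averaged 645 ± 71.7 normalised read counts in cKO and 1539 ± 158 in Control (SD, n = 3 each), a log2 fold change of -1.25 (limma adjusted p = 2.68e-07).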

How the data were processed

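RNA-seq libraries of whole testes, 3 cKO and 3 Control, were grouped by the sample titles. StringTie 1.3.1 and RSEM appear, without a role, among the tools of the submitters' processing notes. No aligner, build, annotation or strandedness is named. The deposited values are a normalised signal although the table is named for raw counts: 100% were whole multiples of 1 step per column (tolerance 1e-06), whose inverse matched that library's median-of-ratios factor (0.825 to 1.35). Whole reads were recovered from the steps. Of recovered counts from 1 to 20, 78.1% were even, so reads at the low end were not independent single events. The cKO reads behind Meiob (14, 8 and 24) and Mcmdc2 (22, 28 and 22) were all even, so this limit may also touch them. Their Control reads were a mix of odd and even, and over all member counts 51.7% were even. The edgeR and DESeq2 runs used these reads and did not model it.

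Genes were filtered with filterByExpr (minimum count 10), leaving 17570 of 22219. limma 3.58.1 with an intensity trend was fitted to log2(value + 2) over the 6 libraries in R 4.3.3, with no covariate, 2-sided, and Benjamini-Hochberg adjusted p-values under 0.05 were called. As alternatives edgeR 4.0.16 (quasi-likelihood, 1575 higher and 1857 lower, 3336 called by limma too in the same direction) and DESeq2 1.42.0 were run on the recovered reads. Tested on simulated counts of the same 17570 genes in cKO against Control, limma found 62.7% of the 1.5-fold changes, 94.0% of the 2-fold and 98.5% of the 4-fold ones, with 4.49% false calls. The changed genes, 67, 67 and 66 of them, were drawn from genes above a low limit on the mean count, which every member passed. Reads were simulated as independent. The rates need not hold for weakly expressed genes or for reads that are not independent. For limma, simulated counts were divided by the known factors, and all other genes were left unchanged. An error of scaling could therefore not arise, and 4.49% is not the false-call rate of the real comparison. Exon lengths and overlaps came from GENCODE M21 and promoters from RefSeq GRCm38.p6. List names absent from the table were matched by RefSeq synonym. Libraries differed beyond sampling noise (chi-square per degree of freedom 10.2 or more for every pair).

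The members, lists and tests were chosen with earlier results of these data known. Named genes were all members, the 4 called genes with the largest absolute fold change in each pathway list, Eif5, Stra8 and the 5 genes most correlated with the members; 1 gene that this rule names is not reported here. The 3 libraries per group limit the precision.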

Additional observations from a re-analysis of the deposited data

How the results depend on the processing

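Over 17 alternatives all 170 member fold changes stayed negative. Dmc1, Meiob, Spata22, Msh5, Hfm1, Tex11 and Tex15 were called lower under each. Msh4 was not called under the general germ cell scaling with or without Dazl or without cKO replicate 2, Hsf2bp was not called under the general germ cell scaling, and Mcmdc2 was called under the Sertoli scaling with or without Clu and without Control replicate 2. Members called lower numbered 8 to 10 when 1 library was left out, where 7.27% to 10.2% of all tested genes were called lower.

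Scaling moved the other counts. Against 1829 genes lower and 1692 higher with the deposited factors, the Sertoli scaling gave 4571 and 14, that scaling without Clu, added after the data were seen, 10873 and 24, the general germ cell scaling 257 and 11088, and that scaling without Dazl, also added then, 365 and 9960. Library totals gave 807 higher, and leaving out 1 library gave 916 to 1764 higher. Other meiotic recombination genes called lower numbered 11 under the Sertoli scaling without Clu and 3 under both germ cell scalings. Shared mediators called lower numbered 21 and 24 under the Sertoli scalings with and without Clu and 0 and 1 under the germ cell scalings with and without Dazl; for joint molecule processing limma gave 0 under both, with 0 at an unadjusted p under 0.05. Eif5 turned to 0.27 and 0.17 under these 2 germ cell scalings, uncalled (adjusted p = 0.0733 and 0.245). Scaling to a list that was itself lower in cKO raises all fold changes by a similar amount. What lies behind the Eif5 values was not tested.

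The labels share replicate numbers, but same-numbered libraries did not deviate together (correlations between -0.04 and 0.06), so the numbers were not taken as pairs. With the replicate block 1771 genes were lower and 1535 higher, and 9 members were lower. With 3 libraries a group and as few as 8 reads behind a value, the sizes for Meiob and Mcmdc2 are the least certain.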
